A study of Mus musculus with 6 samples.

Results

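The renin-angiotensin genes Agt, Ace, Agtr1a, Lnpep, Atp6ap2, Enpep and Mas1 were examined in mouse prefrontal cortex that had received a short hairpin RNA (shRNA) against Kmt5b, a histone H4 lysine 20 methyltransferase gene. These 7 genes were found by their symbols among 54429 rows of read counts, and all 7 passed the filter on low counts. They were chosen with results of these data known, because Agt counts differed between the groups. The difference in Agt is therefore given as a description, without a test. The other 6 genes were taken as partners of Agt in the same pathway.

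Of the 6 libraries, 3 were labelled Kmt5b shRNA and 3 GFP. All came from prefrontal cortex of mice 6 to 8 weeks old, injected with the adeno-associated virus AAV9 carrying either the hairpin or green fluorescent protein, and measured by sequencing of ribosome-depleted total RNA in bulk. The labels give the strain of both groups as C57BL6/J and the design text as C57BL/6 x C3H. The design text counts fewer GFP mice than there are GFP libraries and the protocol speaks of duplicates, so p-values measure the spread between these libraries, which may be technical. No source used here names the promoter of the virus or the cells it reached. The libraries held 48828638 to 57486203 counts in the Kmt5b shRNA group and 29490771 to 74723284 in the GFP group.

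The targeted gene does not separate the labels, though its estimate was lower in the Kmt5b shRNA libraries. The log2 fold change of Kmt5b was -0.22 ± 0.10 (SE, edgeR adjusted p = 0.303), which did not pass. It stayed negative, from -0.31 to -0.14, in all 15 alternative fits and passed in none. Kmt5b was at 68.5, 80.3 and 63.9 CPM (counts relative to library size, with TMM scaling) in libraries labelled Kmt5b shRNA, against 86.5, 79.7 and 80.9 CPM in libraries labelled GFP, so the groups overlapped and every direction given here rests on the labels. Intronless copies of spliced genes held 0.244% to 0.249% of counts in the Kmt5b shRNA libraries and 1.14% to 1.17% in the GFP libraries. Every library of a group lay on its own side of this feature, so it and the labelled treatment cannot be told apart. Markers of frontal cortex layers summed to 457.3 to 476 CPM in the Kmt5b shRNA and 410.6 to 422 CPM in the GFP libraries. Of these 7 genes 0 were called, and 5 had a log2 fold change above 0. The hypothalamic peptide genes Avp and Oxt, of a list of 11 genes whose sums are given below, stayed at or below 0.0897 and 0.120 CPM in every library. Other genes of that list were present in every library, among them Slc17a6 at 14.2 to 21.4 CPM and Prkcd at 11.3 to 22.4 CPM. Tcf7l2, also of the list, was at 2.02 to 3.04 CPM.

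Angiotensinogen, the product of Agt, is the secreted precursor of all angiotensin peptides. Renin cuts it to angiotensin I, and angiotensin-converting enzyme trims this to angiotensin II, which acts mainly on the type 1 receptor and is shortened by aminopeptidases. In the brain, Agt is made chiefly by astrocytes, and in mice its astrocyte expression is stronger in the diencephalon and brainstem than in the cortex. The pathway is known for its part in blood pressure, thirst and vascular tone.

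Agt lies on chromosome 8 from 124556534 to 124569706 on the minus strand (GRCm38, the build also called mm10), and its exons span 1891 bases. In the same build Ace lies at chr11:105967945-105989964, Agtr1a at chr13:30336441-30382867 and Atp6ap2 at chrX:12587801-12617049 on the plus strand, and Enpep at chr3:129269175-129332720, Lnpep at chr17:17521410-17625050 and Mas1 at chr17:12841079-12868143 on the minus strand. The upstream sequences of 3 of the genes are shown because they set the gene whose counts differed, Agt, beside Enpep, which holds the same 2 motifs, and Atp6ap2, the most abundant of the 7 per kilobase, which holds neither. Each is the 250 bases before the RefSeq start (GRCm38.p6), at chr8:124569707-124569956, chr3:129332750-129332999 (both minus strand) and chrX:12587509-12587758 (plus strand). Capitals mark TATAAA, the TATA box, and TTCNNNGAA, the letters that STAT factors bind, searched on both strands.
Agt: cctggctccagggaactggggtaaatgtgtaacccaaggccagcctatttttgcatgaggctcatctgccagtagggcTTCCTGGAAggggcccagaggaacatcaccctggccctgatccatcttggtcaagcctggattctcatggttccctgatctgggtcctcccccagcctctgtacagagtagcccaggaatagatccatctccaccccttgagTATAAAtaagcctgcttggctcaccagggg
Enpep: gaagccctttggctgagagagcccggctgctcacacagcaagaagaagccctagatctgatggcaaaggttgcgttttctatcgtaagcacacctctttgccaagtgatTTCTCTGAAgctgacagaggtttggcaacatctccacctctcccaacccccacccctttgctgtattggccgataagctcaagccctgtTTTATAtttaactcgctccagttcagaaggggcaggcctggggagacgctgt
Atp6ap2: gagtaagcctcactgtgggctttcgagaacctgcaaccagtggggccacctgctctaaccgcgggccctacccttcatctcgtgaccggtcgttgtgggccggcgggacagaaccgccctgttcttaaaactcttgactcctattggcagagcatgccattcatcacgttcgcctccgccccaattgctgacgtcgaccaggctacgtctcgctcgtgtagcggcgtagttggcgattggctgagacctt

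In the Agt sequence TATAAA ended 25 bases and TTCCTGGAA 164 bases before the start. In Enpep the TATA box lay on the opposite strand and ended 47 bases before the start, and TTCTCTGAA ended 133 bases before it. The main Ace promoter held a TATA box on the opposite strand, 26 bases before the start. Among 32851 mouse promoters cut to the same length, 12.4% held TATAAA and 7.0% held TTCNNNGAA, and the 2 motifs do not overlap each other in Agt or Enpep. Another motif searched on both strands, TGTTCT, a part of the glucocorticoid receptor element, was held by 16.1% of these promoters and among the 7 genes by Atp6ap2, where it ended 126 bases before the start and is not in capitals. Promoter sequences were matched for 6 of the 7 genes. A match is a description of letters, and no match says only that these letters are not in this window.

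Agt was about 2-fold higher in the libraries labelled Kmt5b shRNA. It had 6.20, 5.83 and 6.95 CPM in the Kmt5b shRNA libraries, against 3.14, 3.16 and 2.85 CPM in the GFP libraries. The lowest Kmt5b shRNA library lay above the highest GFP library, and within each group the 3 libraries were close together. The means were 6.33 ± 0.567 and 3.05 ± 0.172 CPM (SD, n = 3 each). On the log2 scale this is a difference of 1.06 ± 0.18 (SE), or 2.08-fold. In raw counts these are 353, 271 and 381 reads in the Kmt5b shRNA libraries and 210, 97 and 223 in the GFP libraries, so the shallowest GFP library had the fewest reads but not the lowest CPM. The coefficient of variation was 9.0% in the Kmt5b shRNA group, where counting alone gives 5.5%, and 5.6% in the GFP group, where counting alone gives 7.9%. These counting values hold only if reads were counted singly, which is uncertain here. Agt was a gene of middling abundance, with 48.2% of the tested genes below it. In bulk tissue, fewer cells of a type and less RNA per cell cannot be told apart. Agt shared no annotated transcript sequence of 100 bases or more at 90% identity with another coding gene or pseudogene, and no annotated gene overlapped it.

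**Figure D1:**
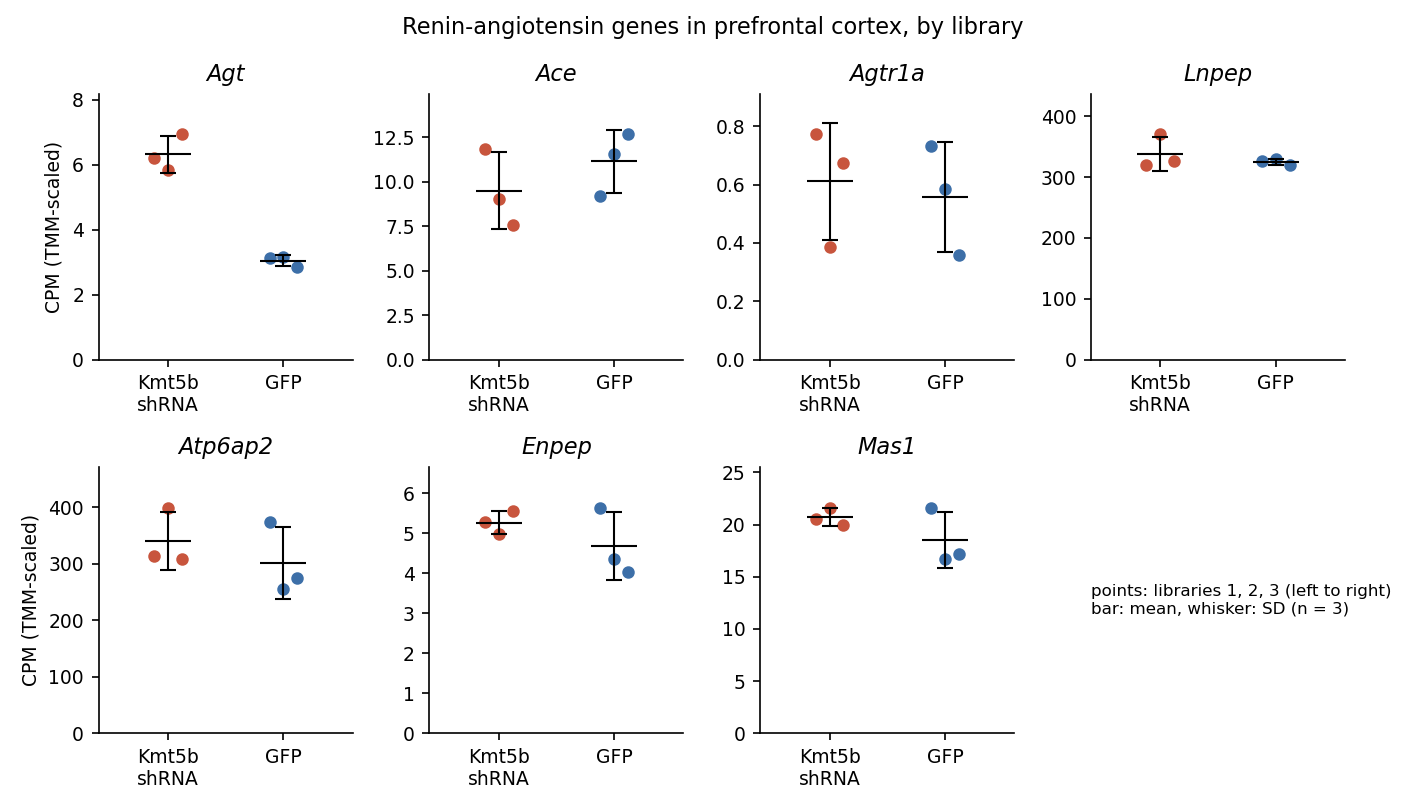
CPM (vertical axis, from 0) of each of the 7 genes in the 3 Kmt5b shRNA libraries (left, red) and the 3 GFP libraries (right, blue), with the mean and SD of each group. Agt is the gene whose groups are apart, at 5.83 to 6.95 CPM against 2.85 to 3.16 CPM; the groups of the other 6 genes overlap.

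Agt was chosen on this contrast, so its being called and its separate groups follow from the choice, and nothing is read from them. None of the other 6 genes passed an adjusted p of 0.05 in the edgeR fit of all genes, and the groups of each overlapped. Over all 24419 genes tested, 8.46% passed in either direction, made up of 2.77% that were higher and 5.69% that were lower in the Kmt5b shRNA libraries. The groups did not overlap for 22.5% of all genes tested, 9.84% with the Kmt5b shRNA libraries higher and 12.6% with them lower. The median log2 fold change of the 7 genes, Agt among them, was 0.16, against -0.02 over all genes tested, and is a description. Of the 6 other genes, 5 had a log2 fold change above 0, and the smallest of their edgeR adjusted p-values was 0.588.

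Among the enzymes that process angiotensins, none of the 3 measured here passed. Ace encodes angiotensin-converting enzyme, which cleaves angiotensin I to angiotensin II and is made by endothelium, choroid plexus and striatal projection neurons. Ace had 11.9, 9.04 and 7.58 CPM in the Kmt5b shRNA libraries, against 9.19, 11.6 and 12.7 CPM in the GFP libraries. Both groups ranged widely, and the highest Kmt5b shRNA library lay inside the GFP range. The means were 9.49 ± 2.18 and 11.1 ± 1.77 CPM (SD, n = 3 each), which differ by -0.23 ± 0.17 on the log2 scale (SE, 95% interval -0.60 to 0.14, edgeR adjusted p = 0.599). Ace was the member with a negative estimate. Without Kmt5b shRNA replicate 1 the value was -0.42, with an adjusted p of 0.308, and leaving out replicate 3 of that group gave -0.08. Gm11651, an antisense gene that shares 295 exon bases with Ace, had at most 3 counts in any library.

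Enpep encodes aminopeptidase A, which removes the first residue of angiotensin II to give angiotensin III and in brain is known from pericytes. Enpep had 5.27, 4.97 and 5.54 CPM in the Kmt5b shRNA libraries, against 5.64, 4.36 and 4.04 CPM in the GFP libraries. GFP replicate 1 was the highest of the 6 libraries and the other GFP libraries were the lowest. The log2 fold change was 0.17 ± 0.19 (SE, 95% interval -0.23 to 0.57, edgeR adjusted p = 0.756), and 0.33 without GFP replicate 1.

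Lnpep encodes a membrane aminopeptidase, also called insulin-regulated aminopeptidase, that binds angiotensin IV and degrades oxytocin and vasopressin. Lnpep had 319.1, 370.7 and 326.1 CPM in the Kmt5b shRNA libraries, against 325.9, 329.5 and 320.1 CPM in the GFP libraries. The GFP libraries agreed within a coefficient of variation of 1.5%, and Kmt5b shRNA replicate 2 was the highest. The log2 fold change was 0.06 ± 0.10 (SE, 95% interval -0.15 to 0.27, edgeR adjusted p = 0.854), and -0.01 without Kmt5b shRNA replicate 2. This is the tightest interval of the 7 genes.

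The receptors did not pass either. Agtr1a encodes the main type 1 angiotensin II receptor of rodents and had few reads. It had 44, 18 and 37 counts in the Kmt5b shRNA libraries, against 49, 18 and 28 counts in the GFP libraries. These are 0.773, 0.387 and 0.674 CPM in the Kmt5b shRNA libraries and 0.733, 0.586 and 0.358 CPM in the GFP libraries, ranges that nearly coincide. The log2 fold change was 0.15 ± 0.42 (SE, 95% interval -0.74 to 1.04, edgeR adjusted p = 0.922), an interval that still holds a doubling. Its sign turned when libraries were left out, at -0.12 when GFP replicate 3 was dropped and -0.06 when Kmt5b shRNA replicate 1 was. Counting alone, if reads were counted singly, gives a coefficient of variation of 18.4% in the Kmt5b shRNA and 18.9% in the GFP group. Agtr1a is uncertain for a further reason, since 51.3% of its longest transcript aligned to Agtr1b, the second rodent type 1 receptor gene. With the counts of both summed, a step added after the data were seen, they had 62, 23 and 39 counts in the Kmt5b shRNA and 63, 18 and 44 in the GFP libraries, a log2 fold change of 0.13 ± 0.39 (SE, edgeR adjusted p = 0.928).

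Mas1 encodes the Mas receptor, which responds to angiotensin-(1-7) and is expressed by neurons of the forebrain. Mas1 had 20.5, 21.6 and 19.9 CPM in the Kmt5b shRNA libraries, against 21.6, 16.7 and 17.2 CPM in the GFP libraries. The Kmt5b shRNA libraries were close together and GFP replicate 1 lay among them, above the other GFP libraries. The log2 fold change was 0.16 ± 0.12 (SE, 95% interval -0.10 to 0.42, edgeR adjusted p = 0.588), and leaving out GFP replicate 1 gave 0.29 with an adjusted p of 0.179. Airn, a long noncoding RNA of the opposite strand, overlaps the Mas1 gene but none of its annotated exons. Its counts were 64, 51 and 56 in the Kmt5b shRNA and 32, 30 and 102 in the GFP libraries. Whether reads were counted by strand is not given in the sources used here, so unspliced Airn reads over Mas1 exons cannot be told apart from Mas1.

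Atp6ap2 encodes the (pro)renin receptor, which binds renin and prorenin and is also an accessory subunit of the vacuolar ATPase. Atp6ap2 had 313.6, 399.7 and 309.2 CPM in the Kmt5b shRNA libraries, against 374.8, 255.9 and 275.1 CPM in the GFP libraries. It varied more within groups than Lnpep, a gene of like read number, with a coefficient of variation of 15% in the Kmt5b shRNA and 21.2% in the GFP group. The log2 fold change was 0.17 ± 0.15 (SE, 95% interval -0.15 to 0.49, edgeR adjusted p = 0.650). Without GFP replicate 1, the highest GFP library, it was 0.36 (adjusted p = 0.0880). Atp6ap2 shares 438 bases with the pseudogene Gm36448, which had 2, 3 and 5 counts in the Kmt5b shRNA and 31, 4 and 34 counts in the GFP libraries.

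**Figure D2:**
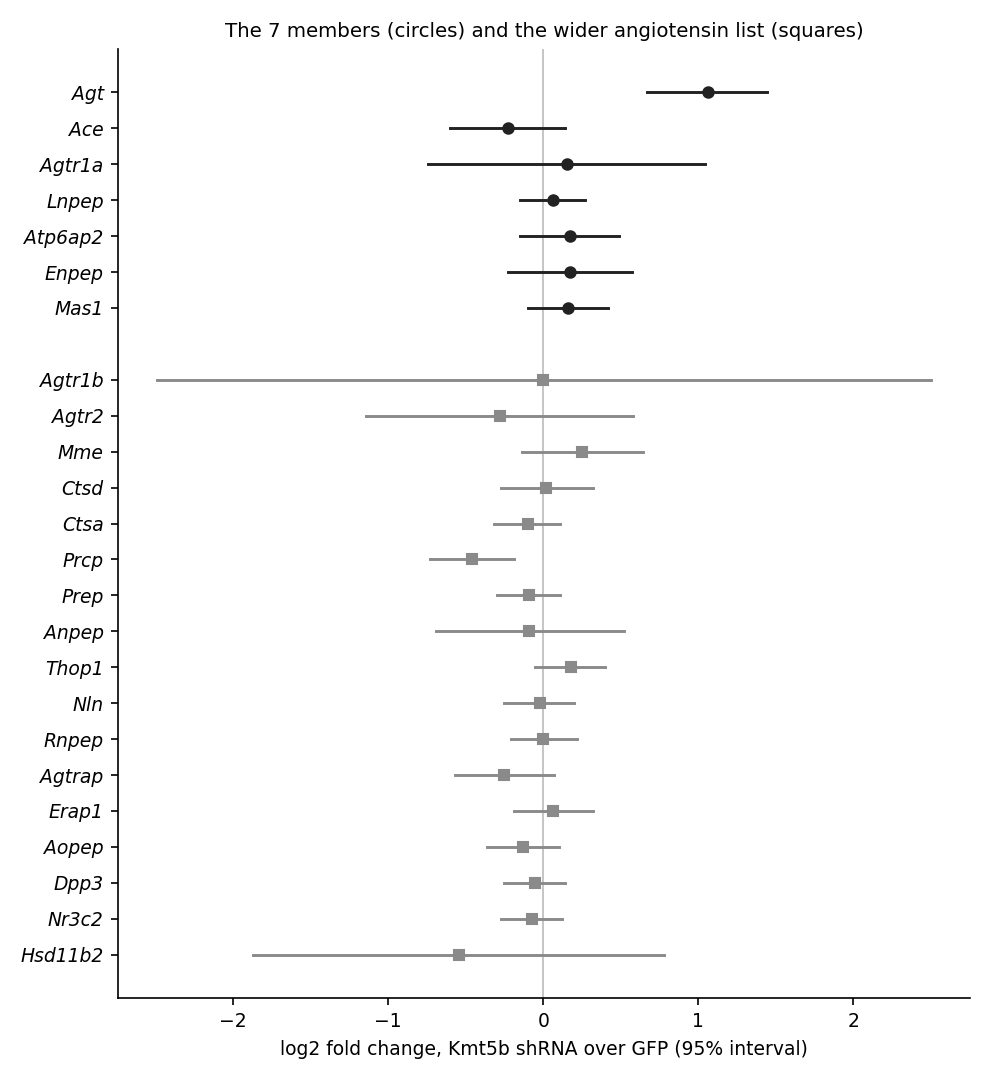
Log2 fold change of Kmt5b shRNA over GFP (horizontal axis) with its 95% interval for the 7 genes (black circles) and the tested genes of a wider angiotensin list (grey squares, 1 gene not shown). Agt, at 1.06, stands to the right of the others, Prcp, at -0.46, has an interval below 0, and the intervals of Agtr1a and Agtr1b, which rest on few reads, are wide.

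Levels of different genes were compared per kilobase of exon. In both groups the order began with Atp6ap2, at 130.2 ± 19.5 CPM per kilobase in the Kmt5b shRNA and 115.3 ± 24.4 in the GFP libraries (SD, n = 3 each). Lnpep followed at 23.9 ± 1.98 and 23.0 ± 0.336 CPM per kilobase, and Mas1 at 7.90 ± 0.327 and 7.05 ± 1.03. Thus the receptor Mas1 and the peptidase Lnpep stood well above the precursor gene. Agt came next in the Kmt5b shRNA libraries, at 3.35 ± 0.300 CPM per kilobase, and behind Ace in the GFP libraries, at 1.61 ± 0.0909. Ace was at 1.80 ± 0.411 CPM per kilobase in the Kmt5b shRNA and 2.11 ± 0.335 in the GFP libraries. In the GFP libraries Ace and Agt were nearest neighbours, with a ratio of means of 1.31, and their values did not overlap, since the lowest Ace value was 1.74 and the highest Agt value 1.67. Enpep followed at 1.12 ± 0.0607 and 0.994 ± 0.179 CPM per kilobase. Agtr1a was last at 0.220 ± 0.0719 and 0.201 ± 0.0678. No 2 neighbours in the order overlapped in their 3 values within a group. With the longest transcript in place of all exons the order was the same in both groups.

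**Figure D3:**
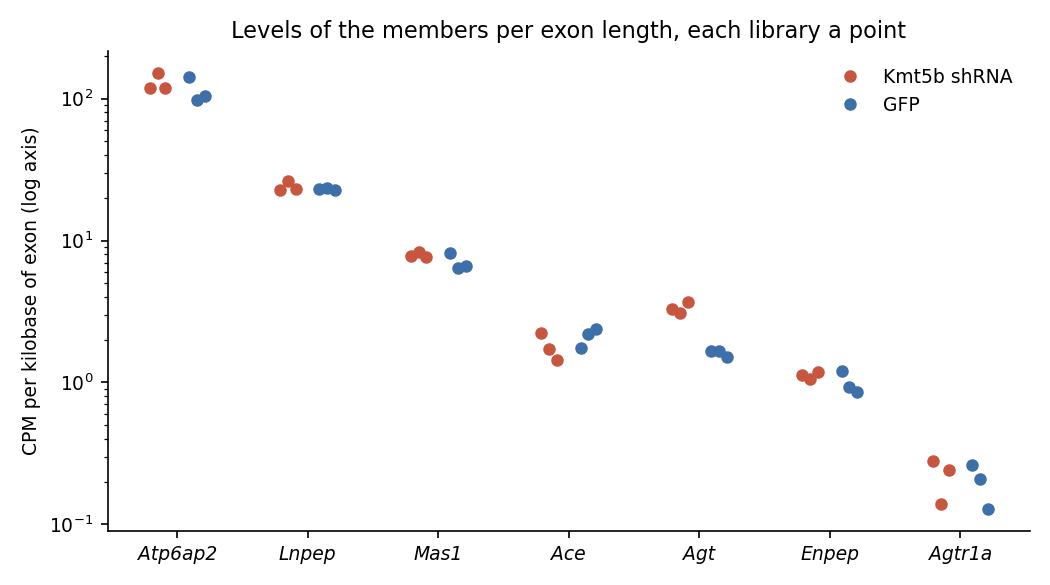
CPM per kilobase of exon (vertical log axis) of the 7 genes, one point per library, Kmt5b shRNA in red and GFP in blue, ordered by the GFP mean. The levels run from 97.7 to 152.7 for Atp6ap2 down to 0.129 to 0.278 for Agtr1a, and Agt lies above Ace in the Kmt5b shRNA libraries and below it in the GFP libraries.

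A wider list of 28 angiotensin genes held renin, further receptors and the peptidases that cut angiotensins. Of these, 27 were found in the files and 18 were tested. In the edgeR fit 0 were higher and 1 was lower, and the list's median log2 fold change was -0.06 against -0.02 over all genes tested, of which 2.77% were higher and 5.69% lower. Among protein-coding genes fitted alone, 2.99% were higher and 1.17% lower, and none of the list was called. The lower gene was Prcp, prolylcarboxypeptidase, which converts angiotensin II to angiotensin-(1-7). Prcp had 11.9, 12.3 and 12.8 CPM in the Kmt5b shRNA libraries, against 14.43, 18.97 and 17.66 CPM in the GFP libraries, and the groups did not overlap. It fell by 0.46 ± 0.13 on the log2 scale (SE), with an adjusted p of 0.0340 in edgeR. The size of the difference was -0.37 to -0.57 with any 1 library left out, but the call was not kept in most of these fits. Its adjusted p was 0.00899 with GFP replicate 1 left out, but leaving out GFP replicate 2 gave 0.159 and GFP replicate 3 gave 0.124. Leaving out Kmt5b shRNA replicates 1, 2 or 3 gave 0.149, 0.0773 or 0.0712. It was also 0.108 in the fit of genes that share no sequence, 0.0568 with copies added to parents and 0.0673 among protein-coding genes.

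The renin gene Ren1 was at the floor, with 0, 2 and 0 counts in the Kmt5b shRNA and 4, 0 and 4 counts in the GFP libraries, and was not tested. Cyp11b2, the aldosterone synthase gene, had 0 counts in all 6 libraries. The type 2 receptor gene Agtr2 had 23, 35 and 37 counts in the Kmt5b shRNA and 30, 30 and 65 counts in the GFP libraries (log2 fold change -0.28 ± 0.40, edgeR adjusted p = 0.820). Ren1, Cyp11b2 and Agtr2 were picked for their roles after their values were seen. The other listed genes of highest read number, not corrected for length, were peptidases and the mineralocorticoid receptor gene. The lysosomal proteases Ctsd and Ctsa had log2 fold changes of 0.02 ± 0.14 and -0.10 ± 0.10, the metallopeptidases Thop1 and Nln 0.18 ± 0.10 and -0.02 ± 0.10, Aopep -0.13 ± 0.11 and Nr3c2 -0.07 ± 0.09 (SE), none of which passed.

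Some astrocyte markers were lower in the Kmt5b shRNA libraries, where Agt was higher. Of 12 markers tested, 0 were higher and 4 lower, namely the water channel Aqp4, the gap junction genes Gja1 and Gjb6 and the amino acid transporter Slc7a10, and the list's median log2 fold change was -0.17. Over all genes tested, 2.77% were higher and 5.69% lower, and among protein-coding genes fitted alone 2.99% and 1.17%. Aqp4 had 123.3, 124.2 and 103.4 CPM in the Kmt5b shRNA libraries, against 157.1, 211.3 and 178.6 CPM in the GFP libraries. It fell by 0.64 ± 0.12 on the log2 scale (SE), with an adjusted p of 0.00178 in edgeR, and it passed with any library left out. Gja1 had -0.51 ± 0.12 (edgeR adjusted p = 0.0114), but 0.0533 when GFP replicate 3 was left out and 0.0614 when Kmt5b shRNA replicate 3 was. Gjb6 (-0.62 ± 0.16, edgeR adjusted p = 0.0334) passed when GFP replicate 3 or Kmt5b shRNA replicate 1 was left out and not when any other library was, where it reached 0.151, nor among protein-coding genes (0.0568), among genes that share no sequence (0.0954) or with copies added to parents (0.0650). Slc7a10 (-0.43 ± 0.11, edgeR adjusted p = 0.0276) passed in none of the 6 fits with 1 library left out, at up to 0.108. The transporter Slc1a3 had -0.18 ± 0.10 (edgeR adjusted p = 0.433). Values above 0 were found for 3 of the 12, the intermediate filament gene Gfap (0.38 ± 0.25), the transcription factor gene Sox9 (0.26 ± 0.15) and the growth factor receptor gene Fgfr3 (0.13 ± 0.09), none of which passed.

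The 12 astrocyte markers summed to 4366 to 4952 CPM in the Kmt5b shRNA and 5086 to 5216 CPM in the GFP libraries. Agt amounted to 0.133%, 0.118% and 0.159% of that sum in the Kmt5b shRNA libraries, against 0.0602%, 0.0621% and 0.0546% in the GFP libraries. Relative to these markers Agt was thus 2.31-fold higher in the Kmt5b shRNA libraries, where its plain CPM was 2.08-fold higher. By this measure 22.6% of all genes tested were higher without overlap. In means, Slc1a2 made up 2616 of 4667 CPM in the Kmt5b shRNA and 2913 of 5172 CPM in the GFP libraries. The astrocyte sum and these percentages thus lean on Slc1a2, whose groups overlapped (-0.16 ± 0.11, edgeR adjusted p = 0.554). The part of the lower astrocyte markers in the Agt difference was not tested. These ratios were added after the data were seen.

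**Figure D4:**
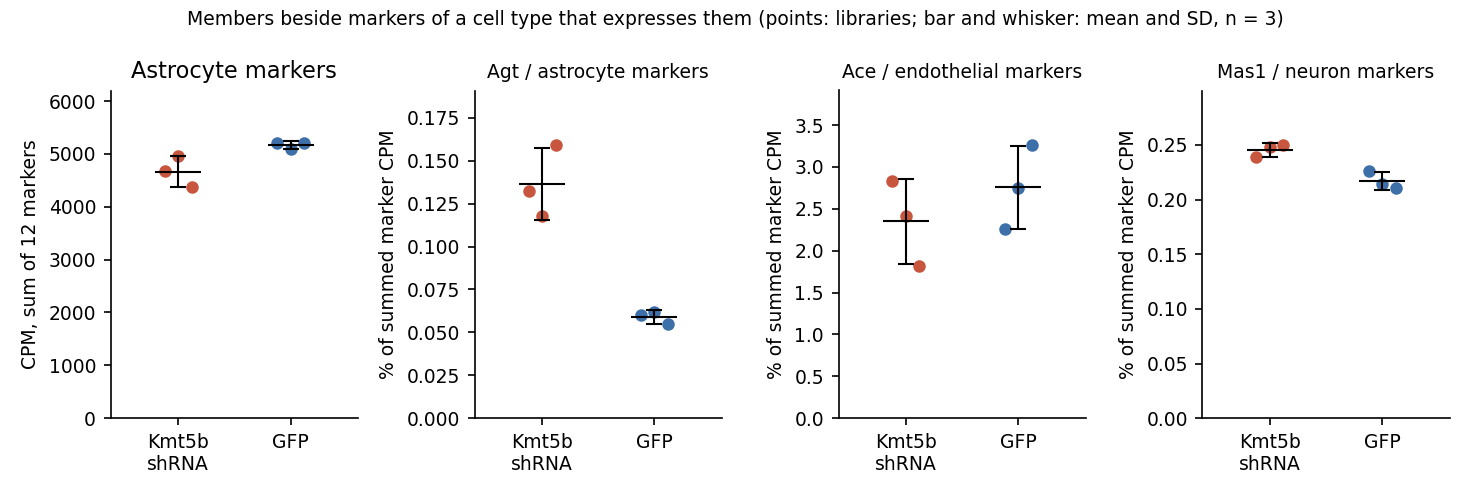
From left, the summed CPM of 12 astrocyte markers, then Agt, Ace and Mas1 as a percentage of the summed CPM of astrocyte, endothelial and neuron markers, per library, with mean and SD. The astrocyte sum is lower and the Agt percentage higher in the Kmt5b shRNA libraries (0.118% to 0.159% against 0.0546% to 0.0621%), while the Ace percentages overlap. The Mas1 percentages do not overlap, at 0.239% to 0.250% in the Kmt5b shRNA and 0.210% to 0.226% in the GFP libraries.

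Of 4 genes known to be stronger in astrocytes outside the telencephalon, a feature they share with Agt, 1 was higher and 1 lower. Shares over all genes tested were 2.77% higher and 5.69% lower, and among protein-coding genes fitted alone 2.99% and 1.17%. Sparc, a secreted matrix protein, was higher at 206.4, 181.4 and 245.8 CPM in the Kmt5b shRNA against 129.3, 127.8 and 158 CPM in the GFP libraries (log2 fold change 0.61 ± 0.12, edgeR adjusted p = 0.00374, and 0.0635 in the fit of genes that share no sequence). The GABA transporter Slc6a11 was lower, at -0.46 ± 0.11 (edgeR adjusted p = 0.0132, and 0.0802 without Kmt5b shRNA replicate 3). Slc6a9 and Itih3 had -0.15 ± 0.12 and 0.15 ± 0.10 and did not pass. The 4 genes summed to 298.6 to 346 CPM in the Kmt5b shRNA and 263 to 290 CPM in the GFP libraries. Agt over this sum was 1.75-fold higher in the Kmt5b shRNA libraries, below its plain 2.08-fold. In means, Sparc made up 211.2 of 322.3 CPM in the Kmt5b shRNA and 138.4 of 273.1 CPM in the GFP libraries. The higher sum and this ratio thus lean on Sparc, and Slc6a9 and Slc6a11 lay on the other side. Markers of thalamus, hypothalamus and midbrain summed to 45.9 to 54.5 CPM in the Kmt5b shRNA and 46.9 to 53.1 CPM in the GFP libraries, with 0 of 6 tested genes called. The part of these markers in the Agt difference was not tested.

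Agt transcription is known to respond to glucocorticoids and to acute-phase signals, so genes of both responses were set beside it. Of 6 glucocorticoid response genes, 1 was higher, namely Cdkn1a, which restrains the cell cycle (0.64 ± 0.17, edgeR adjusted p = 0.0331), and 0 were lower. Beside this, 2.77% of all genes tested were higher and 5.69% lower, and 2.99% and 1.17% of protein-coding genes fitted alone. Cdkn1a is also a p53 target, and its call was lost when replicate 1 of the GFP group (0.0762) or its replicate 3 (0.121) was left out, or replicate 1 (0.0769) or 3 (0.111) of the Kmt5b shRNA group. It was also lost in the fits of genes that share no sequence (0.125), of protein-coding genes (0.0903), with copies added to parents (0.0774), with library size alone (0.0862) and with a replicate block (0.0985). Fkbp5 had 25.1, 25.1 and 25.4 CPM in the Kmt5b shRNA and 23, 21.7 and 22.7 CPM in the GFP libraries (edgeR adjusted p = 0.431). The groups of Fkbp5, Cdkn1a and Zbtb16 did not overlap, each with the Kmt5b shRNA libraries higher. Sgk1, a kinase gene, lay on the other side without overlap, at 51, 58.9 and 55 CPM in the Kmt5b shRNA and 77.7, 60.4 and 67.1 CPM in the GFP libraries (-0.32 ± 0.11, edgeR adjusted p = 0.105). Over all genes tested, 9.84% were higher and 12.6% lower without overlap. Per1 and Tsc22d3 had -0.21 ± 0.13 and -0.16 ± 0.12, and Zbtb16 0.31 ± 0.10 (edgeR adjusted p = 0.0821), none of which passed. The list's median was 0.00, and its sums were 273.1 to 304.9 CPM in the Kmt5b shRNA and 270.3 to 312.7 CPM in the GFP libraries. Of 7 acute-phase and reactive glia genes 0 were called, and their sums were 167.8 to 256.4 CPM in the Kmt5b shRNA and 155.3 to 234.7 CPM in the GFP libraries.

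For the other members, markers of the cells known to express them were summed in the same way. Endothelial markers summed to 375.2 to 419.2 CPM in the Kmt5b shRNA and 388.4 to 420.4 CPM in the GFP libraries, with 0 of 12 called. Ace amounted to 2.35 ± 0.511% of that sum in the Kmt5b shRNA and 2.76 ± 0.498% in the GFP libraries (SD, n = 3 each), and the groups overlapped. Choroid plexus markers were scarce, at 4.28 to 5.32 CPM in the Kmt5b shRNA and 4.05 to 6.77 CPM in the GFP libraries, with 0 of 5 tested genes called. In means, Kl made up 3.073 of 4.849 CPM in the Kmt5b shRNA and 2.674 of 5.485 CPM in the GFP libraries. Ttr had 10, 0 and 5 counts in the Kmt5b shRNA and 14, 12 and 92 in the GFP libraries. Its log2 fold change was -2.69 ± 0.83 (edgeR adjusted p = 0.075). The list's median was -0.5, with 1 of 5 tested genes above 0. Striatal markers, of cells that also make Ace, summed to 230 to 251.3 CPM in the Kmt5b shRNA and 215.1 to 233.9 CPM in the GFP libraries. Of 9 striatal genes 1 was higher, the phosphodiesterase Pde10a (0.44 ± 0.10, edgeR adjusted p = 0.0104, but 0.0685 when GFP replicate 3 was left out and 0.0684 when Kmt5b shRNA replicate 1 was). Over all genes tested, 2.77% were higher. Only 3 of the 9 had a log2 fold change above 0, and the list's median was -0.1. In means, Pde10a made up 115.7 of 241.6 CPM in the Kmt5b shRNA and 85.4 of 225.2 CPM in the GFP libraries, so the striatal sum leans on it.

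Mural cell markers, of the cells known for Enpep and Agtr1a, summed to 291.2 to 318.1 CPM in the Kmt5b shRNA and 302.8 to 318.2 CPM in the GFP libraries, with 0 of 10 called. Enpep amounted to 1.71 ± 0.0378% and 1.51 ± 0.269% of that sum in the Kmt5b shRNA and the GFP libraries (SD, n = 3 each). Neuron markers summed to 7983 to 8717 CPM in the Kmt5b shRNA and 7789 to 9543 CPM in the GFP libraries, with 0 of 10 called. Mas1 amounted to 0.239%, 0.248% and 0.250% of the neuron sum in the Kmt5b shRNA libraries, against 0.226%, 0.214% and 0.210% in the GFP libraries. These percentages did not overlap, whereas its CPM did, and 9.86% of all genes tested were higher without overlap by this measure. Meningeal and fibroblast markers summed to 133.5 to 160.6 CPM in the Kmt5b shRNA and 145.1 to 170.8 CPM in the GFP libraries, and microglial markers to 503.6 to 648.2 and 479.4 to 621.9 CPM, with 0 of 7 called in each list. Oligodendrocyte markers summed to 1536 to 3242 CPM in the Kmt5b shRNA and 2796 to 4275 CPM in the GFP libraries, with 0 of 8 called. Of the 8, 0 had a log2 fold change above 0, and the list's median was -0.42. Mog had 15.2 to 30.5 CPM in the Kmt5b shRNA against 34.5 to 41.8 CPM in the GFP libraries (edgeR adjusted p = 0.142). Its groups and those of Ermn did not overlap, while those of the other listed genes did. Over all genes tested, 2.77% were called higher and 5.69% lower, and 12.6% were lower without overlap.

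The genes whose pattern was most like that of Agt were sought among 10153 protein-coding genes that share no sequence, by Pearson's r of log2 CPM over the 6 libraries. These were Lrrn2 (r = 0.998), Sbf1 (0.998), Hpgd (0.998), Tgm3 (0.997) and the lipoprotein lipase gene Lpl (0.993). All 5 were lowest in the GFP libraries, so r reflects the split between groups as well as order within them. Hpgd, the main prostaglandin-degrading dehydrogenase, had 8.54, 7.90 and 9.01 CPM in the Kmt5b shRNA libraries, against 5.01, 5.11 and 4.93 CPM in the GFP libraries. Tgm3, a transglutaminase, had 9.95, 8.78 and 10.4 CPM in the Kmt5b shRNA libraries, against 5.02, 5.34 and 4.61 CPM in the GFP libraries. As with Agt, Kmt5b shRNA replicate 3 was the highest and replicate 2 the lowest of their group in all 5. The most opposed patterns were Gm20594 (r = -0.986), with 0 counts in each Kmt5b shRNA library against 460, 232 and 566 counts in the GFP libraries, and Adam23 (r = -0.985), a neuronal adhesion protein, at 196.7, 193.4 and 189.8 CPM in the Kmt5b shRNA against 226.5, 236.7 and 240.2 CPM in the GFP libraries. These genes were picked by their likeness over the same libraries, so the correlations and levels are descriptions. Gm20594 split the libraries as the share of intronless copies did, so that feature and the labelled treatment cannot be told apart for it.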

How the data were processed

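The authors deposited raw read counts per gene symbol, 1 file per library, per the file headers. STAR, featureCounts, DESeq2 and the mm10 build are named in the submitters' processing notes, while the labels' protocols name Cutadapt and TopHat2 on RefSeq mRNAs. Versions, annotation and strand setting are not given in the sources used here. Low counts were more often 2 than 1 or 3 in every library, so reads may not be counted singly. Counting errors cover counting alone, and would be larger than given if reads were counted in pairs. Groups and replicate numbers came from sample titles.

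The test across genes was that of edgeR 4.0.16 under R 4.3.3 (filterByExpr, TMM, robust quasi-likelihood fit with legacy=TRUE, Benjamini-Hochberg over all genes tested, threshold 0.05). SE is the absolute log2 fold change over the square root of F, and intervals are at 95%. Members and lists were chosen with earlier results of these data known. The rule for named genes took the 7 members, Kmt5b, called genes and the 6 most abundant others of the wider list, the 5 genes most and 2 least like Agt (log2(CPM + 0.5), average log2 CPM of at least 1), and the first 3 genes of each marker list. Gjb6, Slc7a10, Gfap, Sox9, Fgfr3, Slc1a2, Sparc, Cdkn1a, Per1, Zbtb16, Pde10a, Ermn, Avp and Oxt were named after their values were seen. Ren2 of the wider list was not used here, 1 other gene of it is counted but not reported here by name, and Aopep was matched by a RefSeq synonym. GENCODE M21 gave 53749 of 54429 symbols, positions and lengths. Promoters are from RefSeq GRCm38.p6.

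Alternatives were DESeq2 1.42.0, other scalings and filters, a replicate block, each library left out, protein-coding genes alone, genes sharing no sequence alone, and copies added to parents. Shared sequence came from BLAST+ 2.17.0 on the longest transcripts of coding genes and pseudogenes, at 90% identity over at least 100 bases. Genes sharing no sequence had no match of 200 bases or of 50% of their length. Copies were intronless genes covered over at least 50% by a spliced gene. The fits were tested on simulated data. With 3 libraries a group, the smallest p of an exact two-sided permutation test is 0.1. Same-numbered libraries had deviations that correlated at -0.034, -0.01 and 0.218, so the numbers were not taken to pair libraries.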

Additional observations from a re-analysis of the deposited data

How the results depend on the processing

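The log2 fold change of Agt lay between 0.99 and 1.11 under all 15 alternatives run. Leaving out 1 library at a time moved Agtr1a between -0.12 and 0.43, Lnpep between -0.01 and 0.10, Ctsd between -0.14 and 0.13, and Nln between -0.09 and 0.04. With library size alone Ctsd was at -0.02. None of Ace, Agtr1a, Lnpep, Atp6ap2, Enpep and Mas1 passed under any alternative. Over all genes, 676 were higher and 1390 lower. These counts were 108 and 53 among genes sharing no sequence, where fewer genes were tested and Agtr1a and Atp6ap2 were left out, and 350 and 442 with copies added to parents. Among protein-coding genes 471 were higher and 184 lower, so the balance of higher to lower turned round there and among genes sharing no sequence. The 1 call of the wider list, Prcp, became 0 in those 3 fits and varied between 0 and 1 with single libraries left out. The cause was not tested. Agtr1a rests on 18 to 49 counts per library.

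With the replicate number as a block, Agt was at 1.06, 704 genes were higher and 1507 lower, and Cdkn1a no longer passed (adjusted p = 0.0985). The numbers were not taken to pair the libraries.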
